A study of Mus musculus with 2 samples.

Results

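The Reelin and Cdk5 signalling genes described here are 10 named genes, of 43346 mouse genes measured: the ligand gene Reln, the receptor genes Lrp8 and Vldlr, the adaptor gene Dab1, the Src family kinase gene Fyn, the adaptor genes Crk and Crkl, the kinase gene Cdk5 and its activator genes Cdk5r1 and Cdk5r2. They were chosen by name and role, by a rule that uses no level, and each of the 10 names matched 1 gene. The samples were 1 group, forebrain of embryonic day 15.5 embryos of the mouse strain B6NCrl, male and female together. Total RNA longer than 200 nucleotides was sequenced in 2 biological replicates, each from 10 ng of RNA with spike-in transcripts added. Replicate 1 was a pool of 78 embryos and replicate 2 a pool of 62, so differences between single embryos cannot be seen. There was no second condition, and no test between conditions could be made; values are given for each library or as mean ± SD (n = 2), and differences between genes are set against that SD.

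Reelin is a large secreted glycoprotein that binds the lipoprotein receptors ApoER2, the product of Lrp8, and VLDLR on migrating neurons. Binding clusters the receptors and leads Src family kinases to phosphorylate Dab1, which docks on the receptor tails. Phosphorylated Dab1 recruits Crk and CrkL and is then degraded, and mice without Reelin, without Dab1 or without both receptors have inverted cortical layers. Cdk5 is a kinase of postmitotic neurons that works only when bound by p35 or p39, the products of Cdk5r1 and Cdk5r2, and it acts beside the Reelin pathway in neuron migration.

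Estimated reads, as deposited, totalled 38720511 for replicate 1 and 35103430 for replicate 2, and spike-ins held 5.96 and 5.14% of the TPM. TPM is the abundance of a gene's transcripts corrected for their length and scaled to a fixed sum per library. The tissue label was checked on markers: all 8 forebrain genes exceeded 10 TPM in both libraries, among them Neurod6 at 393 and 385 TPM. None of 5 hindbrain and trunk genes reached 1 TPM in both, and En2 and Hoxb8 had no read, where 3 reads would have given at most 0.101 TPM. Globin genes of the blood summed to 11296 and 10350.0 TPM, and endothelial and microglial markers were also present.

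All 10 genes reached 1 TPM in both libraries, as did 34.4% of all mouse genes and 60.6% of the 21474 protein-coding genes. At 10 TPM or more in both libraries stood 9 of the 10, against 40.9% of protein-coding genes, and at 50 TPM or more 7 of the 10, against 15.8%. Their median level was 62.9 TPM, while the median over protein-coding genes was 4.76 TPM. Dab1 was highest and Cdk5r2 lowest. In order of mean TPM the genes ran Dab1, Crk, Cdk5r1, Lrp8, Fyn, Crkl, Cdk5, Reln, Vldlr, Cdk5r2. Of the neighbours in that order, only Crkl and Cdk5 had library values that overlapped.

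**Figure D1:**
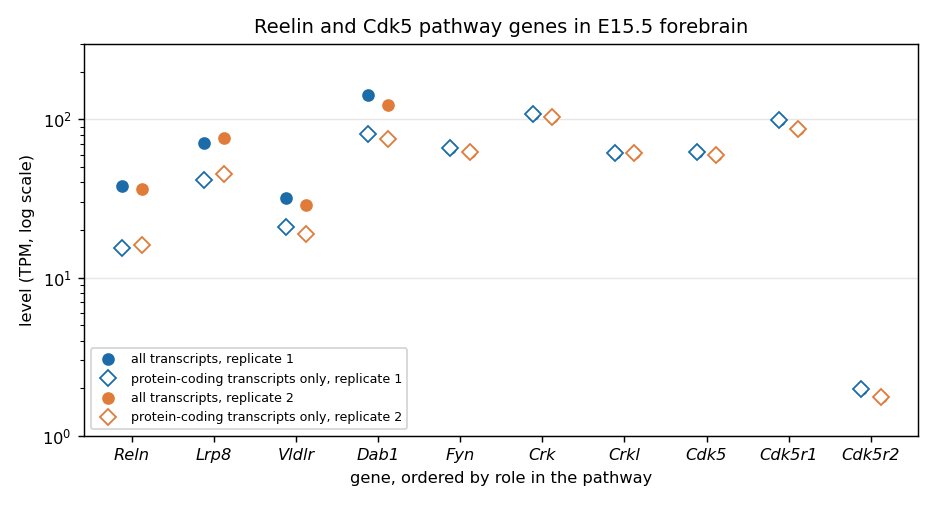
Level of each of the 10 genes in each library, in TPM on a log scale. Filled circles sum all annotated transcripts and open diamonds only those annotated as protein-coding; where both are equal the diamond lies over the circle. Dab1, at 142 and 124 TPM, is highest over all transcripts, and Cdk5r2, at 1.98 and 1.76 TPM, stands far below the other 9 genes.

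Reln (ENSMUSG00000042453.10; chr5:21884454-22344702 in mm10, minus strand; all coordinates are those of GENCODE M21) encodes the ligand. It stood at 38.0 TPM in replicate 1 and 36.1 TPM in replicate 2, from 4890.5 and 4592 estimated reads. The libraries differed by little, and 79.1% of protein-coding genes lay below it. The level was divided among transcripts of very different length. Reln-207, the full-length message of 11699 bases and 3461 codons, held 40.2 and 44.2% of the gene's TPM (15.3 and 16.0 TPM). Reln-205, a non-coding processed transcript of 891 bases with 3 exons at the gene's 3′ end, held 40.7 and 39.6% of it. Counted by reads, Reln-207 held 84.8 and 86.8%, and Reln-205 held 5.87 and 5.30%. Protein-coding transcripts of Reln summed to 15.4 and 16.1 TPM. The gene's rank, 8 over all transcripts, was 9 among the 10 genes when coding transcripts alone were counted.

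Reelin of the embryonic forebrain is made mainly by Cajal-Retzius cells near the brain surface, a sparse cell type. Of 8 marker genes of these cells, 7 reached 1 TPM in both libraries and 1 reached 10 TPM. Trp73, which encodes p73 and is a defining marker, was at 4.59 and 4.91 TPM, and Calb2, the calretinin gene, at 66.0 and 70.7 TPM. The marker list summed to 90.0 and 91.7 TPM, most of it from Calb2 alone. All 7 interneuron markers reached 1 TPM in both libraries, with sums of 533 and 528 TPM; interneurons make Reelin later in life. The part of either cell type in the Reln level was not tested, and in bulk tissue fewer cells of a type and less RNA per cell cannot be told apart.

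A very small exon is known to be used in Reln of neurons. It lies at chr5:21891562-21891567 on the minus strand, and the messages with and without it are shown because the exon is so short; its bases are in capitals. All sequences here are read from GENCODE M21 transcripts, 5′ to 3′:
Reln with the exon: ggaggtcgtcctAGTAAGcactcgcaaaca
Reln without the exon: ggaggtcgtcctcactcgcaaaca
By transcript TPM, 99.5% of coding Reln messages in replicate 1 and 99.1% in replicate 2 held this exon of 6 bases. The form that skips it, Reln-201, accounted for 0.190 and 0.400% of the gene. The share rests on Reln-207 against Reln-201 alone. Their annotated 3′ untranslated regions also differ, with 1019 bases in Reln-207 and 223 in Reln-201, and the part of that difference in the share was not tested.

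Lrp8 (ENSMUSG00000028613.10; chr4:107802261-107876840, plus strand) encodes ApoER2. It stood at 71.0 TPM in replicate 1 and 76.8 TPM in replicate 2, from 7680.0 and 7527 estimated reads, and was the only one of the 10 genes that was higher in replicate 2. Vldlr (ENSMUSG00000024924.10; chr19:27216484-27254231, plus strand) stood at 31.8 and 28.6 TPM, from 2710.0 and 2217 reads. Both Lrp8 values lay above both Vldlr values. The log2 ratio of Lrp8 over Vldlr was 1.16 in replicate 1 and 1.42 in replicate 2, a mean of 1.29 ± 0.19 or 2.44-fold, which is larger than the spread between the libraries. From protein-coding transcripts alone the ratio was 1.11 ± 0.19, or 2.15-fold.

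Both receptors carry in their tails the NPxY motif to which the phosphotyrosine-binding domain of Dab1 binds. The coding bases around it are shown because this is where the receptor and adaptor proteins meet; capitals mark the codons of the motif, at chr19:27247931-27247960 for Vldlr and chr4:107869052-107869081 for Lrp8, both on the plus strand:
Vldlr: aactttgacAATCCTGTGTACttgaagacc
Lrp8: aatttcgacAACCCAGTGTACaggaaaacg
The motif starts at codon 834 of 873 in Vldlr-207 and at codon 855 of 955 in Lrp8-201. It was searched in the coding frame as codons for Asn, Pro, any residue and Tyr, and 3.63% of 21504 complete mouse coding sequences hold it at least once. A match describes the letters only.

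The largest part of the Lrp8 TPM came from a form that lacks 3 cassette exons of the gene. Lrp8-202 held 57.6 and 55.5% of the gene's TPM (40.9 and 42.6 TPM). It has 16 exons, an annotated 3′ untranslated region of 4529 bases and an incomplete 5′ end, and it lacks exons of 381, 123 and 177 bases. Lrp8-209 held 21.1 and 19.6% (15.0 and 15.1 TPM). It has 21 exons, contains all 3 of those cassettes and is annotated as a target of nonsense-mediated decay, the pathway that degrades messages with an early stop. Its annotated reading frame is nevertheless long, at 996 codons, and a 3′ untranslated region of 148 bases follows. The processed transcript Lrp8-212 held 18.1 and 19.5%. Lrp8-201, a complete coding form of 955 codons, held 0.520 and 2.99%, and both values were low. In all, protein-coding transcripts made up 58.3 and 58.5% of the Lrp8 TPM, and on average 82.1 ± 0.391% of its reads.

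The cassette of 177 bases encodes a proline-rich insert in the cytoplasmic tail, which in mouse is known to bind scaffold proteins of the JIP family and PSD-95 and is used in adult synapses. It lies at chr4:107870012-107870188 and is shown because it separates signalling forms of the receptor; the 9 proline codons of its 59 codons are in capitals:
Lrp8 insert: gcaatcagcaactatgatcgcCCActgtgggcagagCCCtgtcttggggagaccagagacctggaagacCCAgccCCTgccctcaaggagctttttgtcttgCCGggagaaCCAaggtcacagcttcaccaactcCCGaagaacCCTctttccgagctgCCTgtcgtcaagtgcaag
Among protein-coding transcripts its inclusion share, the TPM of transcripts that hold the exon over the TPM of those that hold or skip it, was 0.895% in replicate 1 and 5.10% in replicate 2. Over all annotated transcript types it was 27.2 and 28.9%. Skipping was the more abundant in both libraries by either count, but the shares differed between the 2 ways of counting by far more than between the libraries.

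In the extracellular part, the cassette of 381 bases (chr4:107846239-107846619) holds 18 cysteine codons of the ligand-binding repeats. It had the same coding inclusion as the insert, 0.895 and 5.10%, since the only expressed coding form that holds either is Lrp8-201. Over all types its share was 22.3 and 23.3%. The cassette of 123 bases (chr4:107848281-107848403), a single repeat with 6 cysteine codons, was in no expressed coding transcript and in 40.2 and 40.0% over all types. For this exon the gap between the 2 counts comes from Lrp8-209 and Lrp8-212, which are not classed as coding. Lrp8-202 alone carries the long 3′ untranslated region, and its part in these shares was not tested.

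Vldlr had no dominant form. Vldlr-201, annotated as a decay target, held 30.3 and 30.6% of its TPM, and Vldlr-202, a coding form of 804 codons, held 26.3% in both libraries. Vldlr-207, the longest at 7971 bases and 873 codons, held 17.8 and 18.1%. Vldlr-206, a fragment of 774 bases that is incomplete at both ends, held 15.6 and 19.2%. The libraries differed little for each of these.

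The exon of 84 bases in Vldlr encodes a stretch rich in serine and threonine that receives O-linked sugars, and the form without it is known to be cleaved more readily from the cell surface. Its sequence (chr19:27246593-27246676, plus strand) is shown with its 10 serine and threonine codons, of 28, in capitals:
Vldlr exon: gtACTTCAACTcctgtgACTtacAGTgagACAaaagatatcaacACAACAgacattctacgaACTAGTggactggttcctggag
The coding fragment Vldlr-206, at 4.95 and 5.48 TPM, ends before this exon and was not counted for it. This exon was in 36.5 and 38.5% of the coding Vldlr messages that span it, and in 22.5 and 23.3% over all types. Messages that skip it were the more abundant in both libraries by either count of TPM. The retained-intron form Vldlr-204, at 1.16 and 0.940 TPM, overlaps the exon with other ends and was counted on neither side. Vldlr-207, the only form with the exon at its exact ends, has an annotated 3′ untranslated region of 5091 bases. It held 38.4 and 39.6% of the gene's estimated reads. The coding forms that skip the exon, Vldlr-202 and Vldlr-208, held 22.8 and 23.1%, and 4.72 and 2.65%. Among coding forms the order by reads was thus the other way round. An exon of 123 bases (chr19:27236240-27236362) encodes a ligand-binding repeat with 6 cysteine codons. It was in 45.9 and 44.0% of the coding messages that span it and in 63.7 and 63.4% over all types. The side of an even split on which this exon fell therefore differed between the 2 counts. An exon of 126 bases (chr19:27239845-27239970), which encodes an EGF-like repeat, was in 75.8 and 71.0% of coding messages and in 84.1 and 80.8% over all types. Its skipped share came from the fragment Vldlr-206 alone.

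**Figure D2:**
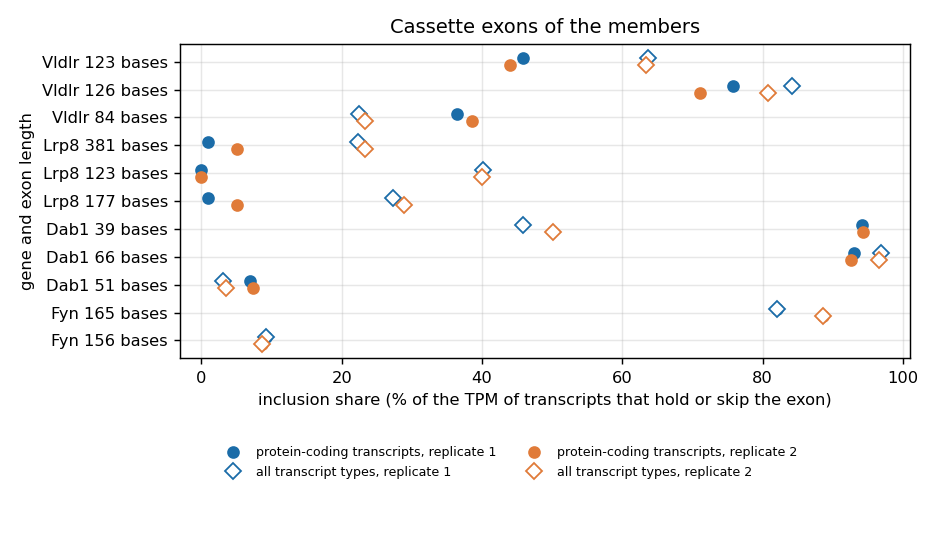
Inclusion share of each described cassette exon in each library, in percent of the TPM of transcripts that hold or skip it. Filled circles count protein-coding transcripts, open diamonds all annotated types; for Fyn both are equal and the diamond covers the circle. The Dab1 exon of 39 bases lies at 94.1 and 94.3% among coding transcripts and at 45.8 and 50.1% over all types.

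Dab1 (ENSMUSG00000028519.12; chr4:103619359-104744844, plus strand) encodes the adaptor. It stood at 142 TPM in replicate 1 and 124 TPM in replicate 2, from 9402 and 7421 estimated reads, and 94.4% of protein-coding genes lay below it. Replicate 1 was the higher, by 1.15-fold. Coding transcripts summed to 80.5 and 75.0 TPM, which placed Dab1 at rank 3 among the 10 genes, after Crk and Cdk5r1.

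The most abundant Dab1 transcript by TPM was not the full-length one. Dab1-207, annotated as a decay target, held 41.7 and 38.0% of the gene's TPM (59.1 and 47.0 TPM). It starts at the same codon as the full-length form but reads 258 codons and ends at a TAG stop in an extra exon of 270 bases at chr4:104704204-104704473, 91 bases into that exon. Dab1-203, the full-length form of 555 codons, held 30.8 and 30.7% (43.7 and 38.1 TPM). By estimated reads the order was the other way round: Dab1-203 held 56.3 and 57.1% of the gene's reads and Dab1-207 held 34.8 and 32.2%. Dab1-203 is 5278 bases long and Dab1-207 is 2462 bases. The incomplete Dab1-206 held a further 12.7 and 12.5% of the TPM.

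The tyrosines that Reelin signalling phosphorylates lie in a short stretch encoded by 4 exons. In Dab1-203 the known sites are the tyrosines of codons 185, 198, 220 and 232. Codon 185 is in an exon of 120 bases and codon 232 in an exon of 60 bases. Codons 198 and 220 are in a pair of cassette exons, of 39 bases (chr4:104680070-104680108, codons 187 to 199) and of 66 bases (chr4:104681598-104681663, codons 200 to 221). These are shown because skipping either removes a phosphorylation site and leaves the reading frame intact; tyrosine codons are in capitals:
Dab1 exon of 39 bases: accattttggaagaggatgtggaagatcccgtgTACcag
Dab1 exon of 66 bases: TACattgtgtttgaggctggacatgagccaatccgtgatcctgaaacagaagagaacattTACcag
Among coding transcripts that span it, the first exon was in 94.1% of messages in replicate 1 and 94.3% in replicate 2. Over all types it was in 45.8 and 50.1%, because Dab1-207 lacks it. The exon of 66 bases was in 93.0 and 92.6% of coding messages and in 96.9 and 96.5% over all types. Of the messages that span its exon, most thus kept the codon 220 site in both libraries by either count. For codon 198 the count of coding messages and that of all types differ. Another cassette, of 51 bases (chr4:104713622-104713672), was in 6.98 and 7.42% of the coding messages that span it and in 3.09 and 3.46% over all types. The skipped shares of the first and second exon among coding messages, and the included share of this last one, came from the incomplete Dab1-208 alone.

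**Figure D3:**
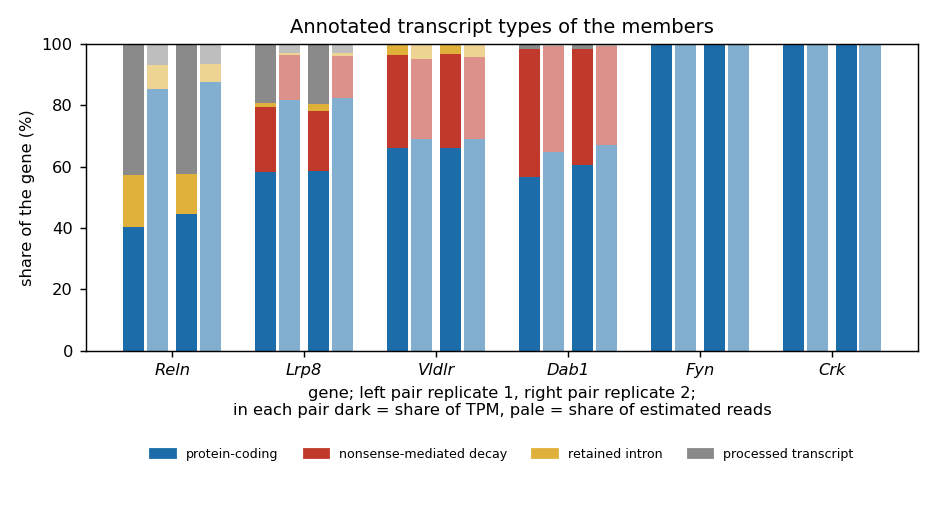
Share of each gene made up by protein-coding, nonsense-mediated decay, retained intron and processed transcripts, in percent, for the 6 genes with several described forms. For each gene the left pair of bars is replicate 1 and the right pair replicate 2, dark for TPM and pale for estimated reads. Protein-coding transcripts make up 40.4 and 44.6% of the Reln TPM but on average 86.4% of its reads, whereas Fyn is at 100% by both, as is Crk, for which only coding transcripts are annotated.

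Part of the TPM of Reln, Lrp8, Vldlr and Dab1 came from transcripts not annotated as protein-coding. The coding share of TPM averaged 42.5 ± 3.03% for Reln, 58.4 ± 0.186% for Lrp8, 66.1 ± 0.0210% for Vldlr and 58.6 ± 2.71% for Dab1. For Crk, Crkl, Cdk5, Cdk5r1 and Cdk5r2 only coding transcripts are annotated, so their share of 100% is fixed by the annotation. Fyn has 1 non-coding transcript, Fyn-203, which was listed at 0 in both libraries.

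Fyn (ENSMUSG00000019843.10; chr10:39368855-39565381, plus strand) encodes the main Src family kinase that phosphorylates Dab1. It stood at 65.8 TPM in replicate 1 and 62.7 TPM in replicate 2, from 4800.0 and 4439 reads. Src, its closest relative in role, was at 31.5 and 29.5 TPM, below both Fyn values. The log2 ratio of Fyn over Src was 1.06 and 1.08, a mean of 1.07 ± 0.02 or 2.10-fold, larger than the spread. Yes1 was at 14.9 and 14.7 TPM and Lck at 7.68 and 6.27 TPM. Of the 7 other Src family genes listed, Src among them, 4 reached 1 TPM in both libraries. Blk was listed with no read, where 3 reads would have given 0.0540 and 0.0587 TPM.

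Fyn has a pair of mutually exclusive exons at the junction with its kinase domain. The exon of 165 bases (chr10:39529437-39529601) makes the brain form FynB, and the exon of 156 bases (chr10:39529919-39530074) makes FynT, known from T cells. Both are shown, in lower case throughout, so that the alternatives can be compared; when aligned, they are identical in 93 of 168 columns (55.4%):
FynB exon: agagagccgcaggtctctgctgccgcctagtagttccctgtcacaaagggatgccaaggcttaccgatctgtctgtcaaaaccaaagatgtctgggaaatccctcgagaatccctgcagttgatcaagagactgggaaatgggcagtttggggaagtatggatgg
FynT exon: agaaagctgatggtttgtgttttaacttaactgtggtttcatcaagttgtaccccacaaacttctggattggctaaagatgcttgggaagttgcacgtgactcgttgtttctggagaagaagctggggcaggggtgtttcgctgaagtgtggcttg
Of the Fyn messages that span it, the FynB exon was in 82.1% in replicate 1 and 88.6% in replicate 2. The FynT exon was in 9.24 and 8.68% of those that span it. FynB exceeded FynT in both libraries by far more than the libraries differed. Fyn-202, the FynB form of 537 codons, held 78.3 and 87.2% of the gene's TPM (51.5 and 54.7 TPM). Fyn-201, the FynT form of 534 codons, held 5.72 and 4.33%. Fyn-206, which holds neither exon, held 8.23 and 2.69% (5.42 and 1.69 TPM). Its deposited intervals, whose level is not stated, were wide. They ran from 0.0264 to 7.50 TPM in replicate 1 and from 0 to 4.61 TPM in replicate 2.

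Crk (ENSMUSG00000017776.11; chr11:75679259-75706908, plus strand) and Crkl (ENSMUSG00000006134.3; chr16:17451987-17487434, plus strand) encode adaptors that bind phosphorylated Dab1 and pass the signal to the exchange factor Rapgef1 and Rap1. Crk stood at 109 TPM in replicate 1 and 103 TPM in replicate 2, from 9135 and 7985 reads. Crkl stood at 61.7 and 61.3 TPM, from 5433 and 4963 reads, and was the most even of the 10 genes between the libraries, with an SD of 0.414% of its mean. Both Crk values exceeded both Crkl values. The log2 ratio of Crk over Crkl was 0.82 and 0.75, a mean of 0.78 ± 0.05 or 1.72-fold, larger than the spread. With protein-coding transcripts alone Crk was the highest of the 10 genes.

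Crk makes a long form, Crk-II, and a short form, Crk-I, by splicing within its second coding exon. A segment of 170 bases (chr11:75692563-75692732, plus strand) is kept in Crk-II and removed in Crk-I, which loses the linker with the regulatory tyrosine and the last SH3 domain. It is shown because its removal is what separates the forms, with no letters in capitals:
Crk segment: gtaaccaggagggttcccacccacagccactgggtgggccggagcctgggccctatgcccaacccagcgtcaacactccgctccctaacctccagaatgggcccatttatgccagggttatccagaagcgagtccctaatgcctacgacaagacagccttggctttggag
Crk-201, the Crk-II form of 304 codons, held 83.7 and 80.2% of the gene's TPM (91.0 and 82.7 TPM). Crk-203, the Crk-I form of 204 codons, held 14.6 and 17.7% (15.8 and 18.3 TPM). The long form was the major one in both libraries. Crkl had a single transcript of 303 codons.

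Cdk5 (ENSMUSG00000028969.6; chr5:24418241-24423530, minus strand) encodes the kinase. It stood at 62.3 TPM in replicate 1 and 59.4 TPM in replicate 2, from 2844 and 2493 reads, all assigned to Cdk5-201 of 292 codons. Cdk5r1 (ENSMUSG00000048895.13; chr11:80477023-80481184, plus strand), which encodes p35, stood at 99.5 and 86.5 TPM, from 9106 and 7237 reads. Cdk5r2 (ENSMUSG00000090071.4; chr1:74854934-74857732, plus strand), which encodes p39, stood at 1.98 and 1.76 TPM, from 125 and 102 reads. The intervals deposited with these values, whose level is not stated, ran from 1.62 to 2.29 TPM for Cdk5r2 in replicate 1 and from 1.40 to 2.06 TPM in replicate 2.

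The activators were thus very uneven. The log2 ratio of Cdk5r1 over Cdk5r2 was 5.58 and 5.54, a mean of 5.56 ± 0.03 or 47.2-fold, and no other pair among the ratios computed came near it. Cdk5r1 also exceeded Cdk5 itself, with a log2 ratio of 0.67 and 0.54, a mean of 0.61 ± 0.09 or 1.52-fold. While 91.5% of protein-coding genes lay below Cdk5r1, 42.5% lay below Cdk5r2. These are message levels, and the amounts of p35 and p39 protein were not measured.

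In none of the 10 genes did one pool exceed the other by more than 25%, a distance that 3.14% of genes at a mean of 10 TPM or more exceeded and 14.1% of genes at 1 TPM or more. The largest fold was 1.15, for Cdk5r1. In TPM, 9 of the 10 genes were higher in replicate 1. After scaling by TMM factors 6 were, and after scaling by spike-in totals 1 was, so the direction depends on the scaling; the median log2 ratio of replicate 1 over replicate 2 for all genes was 0.02 in TPM and -0.20 by spike-ins. Antisense genes and pseudogenes that overlap the 10 genes were low. The highest, Lrp8os2, opposite Lrp8, was at 1.39 and 1.78 TPM. No source states whether strand was used in counting, so reads of such pairs cannot be told apart.

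The wider pathway was read from a list of 89 further genes in 12 groups by role. Of these, 84 reached 1 TPM in both libraries and 65 reached 10 TPM, and their median was 33.8 TPM. The 10 genes thus had the higher median, and both medians exceeded that of protein-coding genes. Among listed genes at a mean of 1 TPM or more, 2 were more than 25% apart between the libraries: Akt1, a kinase downstream of PI3K, at 65.6 and 122 TPM, and Cables1, a Cdk5-binding protein gene, at 4.32 and 3.36 TPM. Cables1 is named because it is one of the pair counted, after its values were seen.

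**Figure D4:**
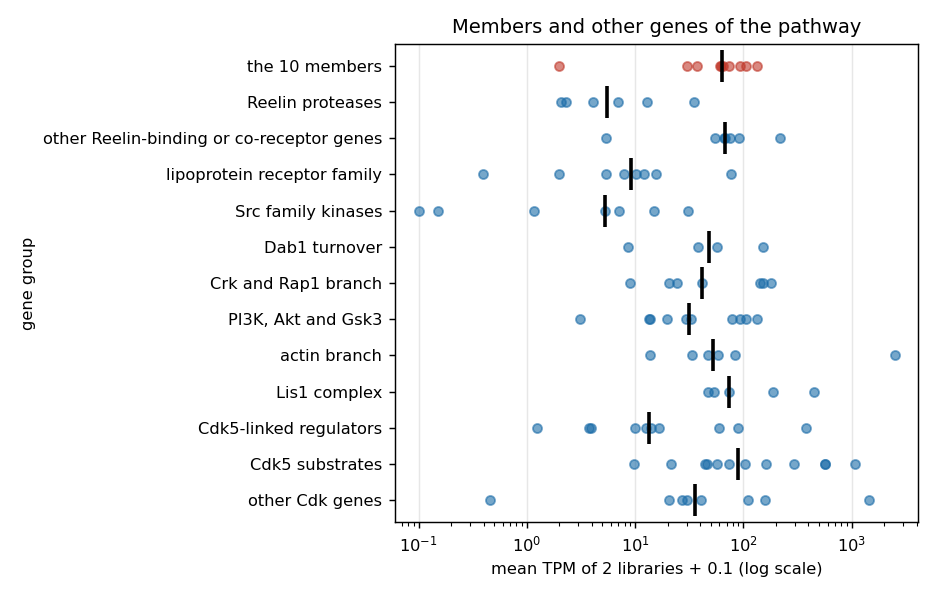
Mean TPM of the 2 libraries plus 0.1, on a log scale, for the 10 genes and for each group of other pathway genes. Each point is a gene and each black bar the group's median. The 10 genes have a median of 62.9 TPM and the 6 Reelin protease genes one of 5.41 TPM.

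Upstream of the receptors, all 6 Reelin protease genes reached 1 TPM and 2 reached 10 TPM. Plat, which encodes tissue plasminogen activator, was highest at 36.4 and 33.3 TPM. Adamts3, the main protease known to inactivate Reelin in mouse, was at 12.9 TPM in both libraries, Adamts4 at 6.85 and 6.74 TPM and Adamts5 lowest at 2.06 and 1.90 TPM. Each was below Reln in both libraries when all Reln transcripts were counted. The protein-coding transcripts of Reln alone, at 15.4 and 16.1 TPM, lay below Plat. Of 8 other lipoprotein receptor family genes, 7 reached 1 TPM and 3 reached 10 TPM. Lrp1 was highest at 76.4 and 78.2 TPM, close to Lrp8, while Sorl1 was at 15.8 and 15.4 TPM and Lrp2 lowest at 0.390 and 0.200 TPM. Lrp8 and Vldlr exceeded Sorl1 and Lrp2 in both libraries. Of 7 other Reelin-binding or co-receptor genes, 6 reached 10 TPM in both libraries. App, the amyloid precursor gene, led at 219 and 216 TPM, followed by the ephrin gene Efnb3 at 94.6 and 88.5 TPM and the integrin gene Itgb1 at 77.8 and 73.2 TPM. Itga3 was lowest at 5.67 and 4.87 TPM.

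Downstream of Dab1, all 4 genes of its degradation by the Cul5 ubiquitin ligase reached 1 TPM and 3 reached 10 TPM. Rnf7, the ring-finger subunit, was at 156 and 148 TPM, Ube2f at 58.0 and 56.5 TPM and Cul5 itself at 38.1 and 38.0 TPM. Socs7, a substrate adaptor that recognises phosphorylated Dab1, was lowest at 8.78 and 8.32 TPM. All 4 but Rnf7 stood below Dab1 itself. Of 7 genes of the Crk and Rap1 branch, 6 reached 10 TPM. Cdh2, the N-cadherin gene, was at 179 and 178 TPM, Afdn at 148 and 158 TPM, Rap1b at 146 and 140 TPM and Nectin1 lowest at 8.88 and 8.99 TPM. In the PI3K, Akt and Gsk3 branch 9 of 10 genes reached 10 TPM. Gsk3b was highest at 135 TPM in both libraries, followed by Pik3r2 at 106 and 104 TPM, and Pik3cb was lowest at 2.98 and 3.05 TPM. The Gsk3b level was thus close to that of Dab1, the highest of the 10 genes when all transcripts are counted. Protein-coding transcripts of Dab1 alone, at 80.5 and 75.0 TPM, lay below Gsk3b. All 6 genes of the actin branch reached 10 TPM, from Limk1 at 14.0 and 13.2 TPM to Cfl1, which encodes cofilin, at 2470.5 and 2532 TPM. Limk2 was at 85.2 and 80.8 TPM and Wasl at 59.3 and 56.5 TPM. All 5 genes of the group listed around Lis1 also reached 10 TPM, from Pafah1b1 at 48.0 and 46.7 TPM to Pafah1b3 at 434 and 457 TPM. Pafah1b2 was at 190 and 189 TPM and Ndel1 at 76.6 and 71.4 TPM.

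Around Cdk5, all 10 genes of proteins that bind, cleave or regulate its complexes reached 1 TPM and 6 reached 10 TPM. Gstp1 led at 377 and 375 TPM, followed by Cdk5rap3 at 90.0 and 87.3 TPM, both above Cdk5. Of the calpain proteases, which cleave p35 to p25, Capn2 was at 58.3 and 60.4 TPM and Capn1 lowest at 1.16 ± 0.134 TPM (SD, n = 2). Among 12 substrate genes 11 reached 10 TPM. The microtubule-linked Dpysl2, Map1b and Mapt were highest, at 1108 and 1060 TPM, 572 and 573 TPM, and 585 and 544 TPM, and Rapgef2 was lowest at 9.81 and 9.43 TPM. Of 8 other Cdk genes 7 reached 10 TPM. Cdk4 and Cdk1, which drive the cell cycle of dividing cells, were at 1420 and 1483 TPM and at 147 and 170 TPM, and Cdk16 was at 110 and 113 TPM. All 3 stood above Cdk5 in both libraries, and Cdk18 was lowest at 0.140 and 0.570 TPM.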

How the data were processed

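Forebrain RNA of 1 group, 2 biological replicates, was analysed from 1 gene table and 1 transcript table per library. Expected counts, as deposited, are estimated reads that need not be whole; TPM, as deposited by the authors, scales them by effective length, spike-ins included; the percent column, as deposited, is a transcript's part of its gene's TPM. Per the notes deposited with the files, the build was mm10 and the annotation GENCODE M4. Aligner, quantifier, versions and strand setting: not given in the sources used here. Per the labels' protocols, a kit manual linked there is for poly(A)-primed cDNA; how these libraries were primed is not stated.

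The tables hold 69691 entries: 43346 mouse genes, 97 spike-in or control entries and 26248 numbered entries, the last 2 kinds left out. Identifiers, stripped of their version, gave a symbol for 42462 genes. Names, types, coordinates and sequences come from GENCODE M21 on mm10, whose models differ in part from M4: among transcripts of the 10 genes, Cdk5-201 and Crkl-201 have another length there. The 10 genes and all lists were chosen with earlier results of these data known. Named were all 10 genes, transcripts at a mean share of 10% or more, cassette exons at 5 to 95% inclusion, and the 3 highest and the lowest gene of each pathway group, of which 1 is not reported here. Minor transcripts, the Reln exon, the Lrp8 exons (outside 5 to 95% by coding transcripts alone) and markers were named beyond this, after their values were seen. Inclusion shares come from transcript TPM, not from reads across junctions; transcripts count only if they span both sides of the exon. Log2 ratios used TPM + 0.1.

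Scripts used Python 3.11.15, numpy 2.4.6 and pandas 2.3.3, with Biopython 1.88 for codons and the Fyn exon alignment and matplotlib 3.10.9 for figures, and were tested on simulated data. Alternatives used posterior mean TPM, a pseudocount of 1, other filters, single libraries, coding transcripts only, and expected counts, rounded to whole numbers, scaled by edgeR 4.0.16 TMM factors, DESeq2 1.42.0 size factors or spike-in totals (R 4.3.3); no count test was run, since there was 1 group. Counts over all transcript types and shares of reads were added after seeing the data. Limits for 0 reads are 3 reads per library and cover counting error only.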

Additional observations from a re-analysis of the deposited data

How the results depend on the processing

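Apart from leaving out a replicate, 48 alternative values were computed. Of these, 25 moved by less than 1 SD of the libraries (counts by less than 1.5 times) and 23 by more. A reversal was defined only as a change of sign of a log2 ratio, and 0 were found. Shares and counts could not receive that label. Over all transcript types the Vldlr exon of 123 bases passed from 44.9 to 63.5%, and the Dab1 exon of 39 bases from 94.2 to 48.0%. Leaving out either of 2 replicates keeps a mean within 1 SD by construction, so those values say nothing about stability. A pseudocount of 1 TPM gave a Cdk5r1 over Cdk5r2 log2 ratio of 5.03 and a Fyn over Src log2 ratio of 1.05; coding transcripts alone gave 1.13 for Fyn over Src. Posterior mean TPM gave a leading coding Dab1 share of 30.6% and inclusion of 1.23% for the Lrp8 exon of 123 bases, 93.2, 91.6 and 8.45% for the Dab1 exons of 39, 66 and 51 bases, and 10.2% for the Fyn exon of 156 bases. By reads the leading coding share was 56.7% for Dab1 and 80.4% for Lrp8. All transcript types gave mean inclusion of 63.5, 82.5 and 22.9% for the Vldlr exons of 123, 126 and 84 bases, 22.8, 40.1 and 28.1% for the Lrp8 exons of 381, 123 and 177 bases, and 48.0, 96.7 and 3.28% for the Dab1 exons of 39, 66 and 51 bases. The all-type shifts come from the added transcripts that are not classed as protein-coding, such as the decay targets Dab1-207 and Vldlr-201. The cause of the other shifts was not tested. The share of genes more than 25% apart was 14.1%, 3.14% with a filter at 10 TPM, 23.5% with a summed count of 10 as the only filter, and 22.5% after spike-in scaling. No paired analysis was possible because there was 1 group. With 2 pools an SD has 1 degree of freedom, and Cdk5r2 rests on 125 and 102 reads. Shares of incomplete transcripts depend on the annotation.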
